A study of Mus musculus with 6 samples.

Results

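Cadherins are transmembrane proteins that join cells to each other through repeated calcium-binding domains. Classical cadherins bind catenins inside the cell and so reach the actin cytoskeleton, whereas protocadherins lack the catenin-binding tail, and the giant Fat and Dachsous proteins bind each other across cell borders and feed into planar polarity and Hippo signalling. The clustered protocadherins are encoded in 3 neighbouring gene arrays, *Pcdha*, *Pcdhb* and *Pcdhg*, and are best known for giving neurons a surface identity. Fibroblasts are known for *Cdh11* and *Cdh2*, while *Cdh1* is the cadherin of epithelia and *Cdh5* that of endothelium.

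The members were all genes of the table whose symbol was Cdh with a number, Pcdh with a letter or number, *Fat1* to *Fat4*, or *Dchs1* or *Dchs2*, which gave 93 of 17092 genes. RNA-seq covered cultured embryonic fibroblasts of the mouse (MEFs), in 3 WT and 3 *Aff3ir-ORF2*-/- libraries. No treatment, embryo age or strain of the libraries is given in the labels. The knockout was made by CRISPR/Cas9 in the zygote and is present in every cell, and the labels do not say whether libraries of a genotype came from separate embryos or cultures, so the p-values measure the spread between these libraries, which may be technical. *Aff3ir* was not analysed here.

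Of the 93 members, 41 were unclustered (5 type I and 13 type II classical cadherins, 5 other cadherins, 9 delta protocadherins, 3 other protocadherins and 6 Fat and Dachsous genes) and 52 were clustered (10 in *Pcdha*, 21 in *Pcdhb* and 21 in *Pcdhg*). In at least 1 library 80 members exceeded 3 counts, taken as the detection floor, and the other 13 were not detectable at this depth. A filter on low counts, edgeR's filterByExpr, left 29 unclustered and 38 clustered members to test.

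Values are estimated read counts as deposited, rounded to whole numbers, and CPM (each count as a share of its library, set to a common total) after TMM scaling of the libraries. Total counts ran from 17435133 to 18252330 a library, so counts can be set side by side across libraries. The *Aff3ir-ORF2*-/- libraries varied more among themselves than the WT ones, with a biological coefficient of variation of 0.0996 against 0.0185, and of 0.0641 without *Aff3ir-ORF2*-/- replicate 2. Fibroblast markers summed to between 23258 and 23381 CPM in WT and between 17248 and 22102 CPM in *Aff3ir-ORF2*-/- libraries. Of the 12, 7 had a positive and 5 a negative log2 fold change. Past both thresholds 2 were higher (*Lum* with 2.17 and *Pdgfrb* with 0.59) and none was lower. The abundant *Col1a1*, *Col1a2* and *Vim*, with -0.49, -0.41 and -0.39, passed the adjusted p only, as did *Prrx1* with 0.27. Macrophage markers summed to between 19.4 and 22.9 CPM in WT and between 1319 and 2253 CPM in *Aff3ir-ORF2*-/- libraries, and 15 of 15 were higher. The part of these differences in the results below was not tested, and in bulk RNA fewer cells of a type and less RNA per cell cannot be told apart.

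For each of the 13075 genes past the filter, *Aff3ir-ORF2*-/- was set against WT in edgeR's quasi-likelihood test, with p-values adjusted by Benjamini-Hochberg. A gene counts as higher or lower where the adjusted p is under 0.05 and the genotypes differ by 1.5-fold or more. By this rule 14.2% of all tested genes were higher and 7.27% were lower. With the adjusted p as the sole criterion, whatever the fold, 29.3% were higher and 27.5% lower, and in 66.0% the libraries of the genotypes did not overlap. The median log2 fold change of all tested genes was 0.01.

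Among the 29 unclustered members tested, 6 rose (*Fat3*, *Fat4*, *Pcdh17*, *Cdh19*, *Pcdh10* and *Pcdh1*) and 6 fell (*Cdh23*, *Pcdh15*, *Dchs2*, *Cdh5*, *Cdh10* and *Pcdh18*). Whatever the fold, 8 were higher and 10 lower at the adjusted p, these 12 included, and 11 did not pass. The genotypes did not overlap in 21 of the 29 (72.4%, against 66.0% of all tested genes), and the median log2 fold change was -0.24. Among the 38 clustered members tested, 2 rose (*Pcdhgc5* and *Pcdhgb5*), 4 fell (*Pcdhb9*, *Pcdhb15*, *Pcdhb20* and *Pcdhb22*) and 24 did not pass even the adjusted p. The genotypes did not overlap in 17 of these 38 (44.7%), and the median log2 fold change was -0.16. Calls in either direction made up 41.4% of the unclustered and 15.8% of the clustered members tested, against 21.4% of all tested genes. Of the 18 members called, 8 were also called in each of the 16 other fits that tested them, namely *Fat3*, *Fat4*, *Pcdh17*, *Pcdhgc5*, *Cdh10*, *Cdh23*, *Pcdh15* and *Pcdh18*. Of these, *Pcdh15* was tested in 15 of the 16. It had 9, 8 and 9 counts in the *Aff3ir-ORF2*-/- libraries and passed the low-count filter only through its WT libraries. The fit with at least 10 counts in every library left it out.

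The promoters of the 2 largest increases outside the clusters, *Fat3* and *Fat4*, and of the 2 lower members with the most counts, *Pcdh18* and *Cdh10*, are printed here to show how unlike they are in base composition. Each runs from 250 bases before to 50 bases after the annotated start on the strand of the gene, from RefSeq on GRCm38.p6, with each CG dinucleotide in capitals. They are *Fat3* at chr9:16502005-16502304 on the minus strand, *Fat4* at chr3:38886690-38886989 on the plus strand, *Pcdh18* at chr3:49757267-49757566 on the minus strand and *Cdh10* at chr15:18820079-18820378 on the plus strand.
*Fat3*: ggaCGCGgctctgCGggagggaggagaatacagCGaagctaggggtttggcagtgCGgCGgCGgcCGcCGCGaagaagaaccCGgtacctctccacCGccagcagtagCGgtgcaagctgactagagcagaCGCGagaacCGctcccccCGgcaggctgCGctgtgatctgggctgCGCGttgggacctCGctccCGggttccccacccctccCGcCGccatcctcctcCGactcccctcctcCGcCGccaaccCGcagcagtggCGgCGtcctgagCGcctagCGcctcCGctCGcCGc
*Fat4*: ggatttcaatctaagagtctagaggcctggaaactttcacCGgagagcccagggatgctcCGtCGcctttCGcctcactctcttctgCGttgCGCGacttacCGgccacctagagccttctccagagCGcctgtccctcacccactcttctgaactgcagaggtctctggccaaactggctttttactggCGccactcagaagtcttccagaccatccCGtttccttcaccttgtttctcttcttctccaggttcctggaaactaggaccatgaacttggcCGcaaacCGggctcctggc
*Pcdh18*: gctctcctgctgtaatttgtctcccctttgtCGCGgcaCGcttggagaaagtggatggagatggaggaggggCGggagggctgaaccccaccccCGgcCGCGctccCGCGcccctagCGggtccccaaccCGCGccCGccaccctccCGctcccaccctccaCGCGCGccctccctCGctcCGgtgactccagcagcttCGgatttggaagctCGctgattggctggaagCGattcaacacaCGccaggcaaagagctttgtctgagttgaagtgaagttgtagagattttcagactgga
*Cdh10*: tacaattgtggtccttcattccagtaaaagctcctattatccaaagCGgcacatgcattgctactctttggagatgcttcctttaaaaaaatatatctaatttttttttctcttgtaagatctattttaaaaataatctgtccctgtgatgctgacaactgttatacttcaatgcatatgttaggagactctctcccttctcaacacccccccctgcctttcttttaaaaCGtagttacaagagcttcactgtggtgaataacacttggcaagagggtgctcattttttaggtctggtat
The *Fat3* window held 35 CG dinucleotides and the *Pcdh18* window 23, against a median of 7 over the 32851 windows of the table. The *Fat4* window held 13 and the *Cdh10* window 2. The share of G and C was 71.3% in *Fat3*, 63.0% in *Pcdh18*, 55.7% in *Fat4* and 37.7% in *Cdh10*. The E-box CAGGTG, which reads CACCTG on the other strand and is bound by the Snail and Zeb repressors of cadherin genes, was searched on both strands. It was in 6 of the 30 windows of the 27 unclustered members that had one, or 20%, and in 20.2% of all windows, and it was in none of the 4 windows printed. *Cdh1*, *Cdh2*, *Cdh3*, *Cdh5*, *Cdh11* and *Dchs1* were among the members without a window, so the search does not cover them. By gene it was found in 4 of the 27 (*Cdh7*, *Fat1*, *Pcdh7* and *Pcdh15*), since 3 of the 6 windows were of *Cdh7*, a gene not detectable in these libraries.

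**Figure D1:**
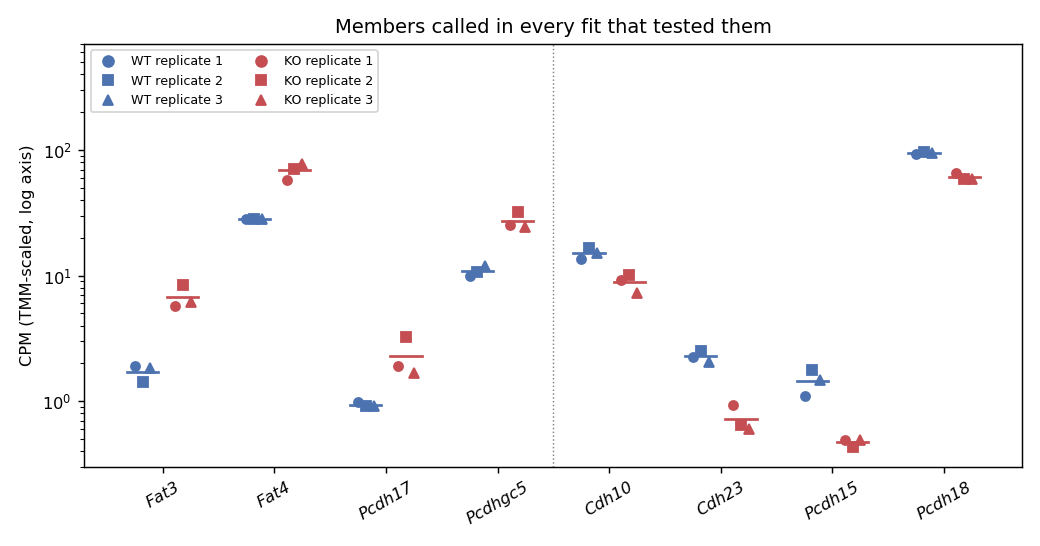
CPM (TMM-scaled, log axis) in each library for the 8 members called in every fit that tested them, WT in blue and *Aff3ir-ORF2*-/- (KO) in red, with a line at the mean of 3 libraries. In each of the 8 genes all KO libraries lie on 1 side of all WT libraries, with *Fat3*, *Fat4*, *Pcdh17* and *Pcdhgc5* higher and *Cdh10*, *Cdh23*, *Pcdh15* and *Pcdh18* lower.

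In the Fat and Dachsous group, 2 of 5 tested genes rose and 1 fell. Of all tested genes, 14.2% were higher and 7.27% lower. *Fat4*, the receptor of Dachsous ligands in mammals, had 485, 497 and 496 counts in the WT libraries against 1060, 1318 and 1423 in the *Aff3ir-ORF2*-/- libraries. Each *Aff3ir-ORF2*-/- library was more than 2-fold above each WT library. The level went from 28.2 ± 0.131 to 68.8 ± 9.81 CPM (SD, n = 3 each), which made the log2 fold change 1.28 ± 0.10 (SE, adjusted p = 1.44e-05 by edgeR). *Fat3*, a relative that shapes neurons of the retina, had 33, 25 and 32 counts in the WT libraries against 105, 157 and 114 in the *Aff3ir-ORF2*-/- libraries. It was low in WT and without overlap, and the log2 fold change of 1.98 ± 0.20 (SE, adjusted p = 3.78e-05 by edgeR) was the highest of the 67 members tested.

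*Fat1*, tied to actin and Hippo signalling in many cell types, was by far the most counted Fat gene, with 19195, 19691 and 20505 counts in the WT libraries against 23577, 21977 and 23638 in the *Aff3ir-ORF2*-/- libraries. The libraries did not overlap, but the log2 fold change was only 0.14 ± 0.05 (SE, adjusted p = 0.0401 by edgeR), under the 1.5-fold threshold. The ligand *Dchs1* had 1040, 958 and 950 counts in the WT libraries against 632, 1093 and 682 in the *Aff3ir-ORF2*-/- libraries. After scaling, replicate 2 lay within the WT range and the other 2 lay below it, and *Dchs1* did not pass (log2 fold change -0.37 ± 0.21, adjusted p = 0.181 by edgeR). Without *Aff3ir-ORF2*-/- replicate 2 it was -0.65 with an adjusted p of 1.63e-07 in the same edgeR fit.

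*Dchs2*, the second Dachsous gene, had 11, 18 and 19 counts in the WT libraries against 8 in each *Aff3ir-ORF2*-/- library. It passed as lower (log2 fold change -1.07 ± 0.34, adjusted p = 0.0237 by edgeR) at counts close to the filter, and not under DESeq2, limma voom or without WT replicate 2 or 3, where the adjusted p reached 0.10. *Fat2* had at most 4 counts and was not tested. Of the 8 tested partners of this pathway, 1 fell (12.5%, against 7.27% of all tested genes). It was the Hippo transcription factor *Tead4* (log2 fold change -0.68, adjusted p = 0.00525 by edgeR). At the adjusted p alone 2 more were lower, *Mpdz* and *Mob1a*, with log2 fold changes of -0.40 and -0.18. The kinase *Fjx1*, which modifies Fat and Dachsous cadherin domains, had a log2 fold change of 0.23 and did not pass (adjusted p = 0.0507 by edgeR), and *Lats1* and *Lats2* did not pass either.

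Of the type I classical cadherins, which bind homophilically and carry the catenins at adherens junctions, none of the 3 tested passed. *Cdh2* (N-cadherin) had 5424, 5466 and 5503 counts in the WT libraries against 5760, 3935 and 5928 in the *Aff3ir-ORF2*-/- libraries. Only replicate 2 lay below WT. The log2 fold change was -0.15 ± 0.16 (SE, adjusted p = 0.487 by edgeR) with that library and 0.02 without it. *Cdh3* (P-cadherin), known from basal epithelia, had 742, 813 and 804 counts in the WT libraries against 412, 692 and 287 in the *Aff3ir-ORF2*-/- libraries.

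All *Aff3ir-ORF2*-/- libraries were below WT for *Cdh3*, but they were spread over more than 2-fold among themselves. The log2 fold change of -0.84 ± 0.30 (SE) had an adjusted p of 0.0616 in edgeR's robust quasi-likelihood test and so was not called. This result turned on the choice of fit. The same edgeR test without robust dispersions called it lower at an adjusted p of 0.0159, as did DESeq2 (0.0426), limma voom (0.00168) and the robust edgeR fit without *Aff3ir-ORF2*-/- replicate 2 (log2 fold change -1.24, adjusted p = 0.000452).

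*Cdh4* (R-cadherin), with between 43 and 68 counts, did not pass (log2 fold change -0.05). *Cdh1* (E-cadherin) had 6, 5 and 2 counts in the WT libraries against 3, 8 and 1 in the *Aff3ir-ORF2*-/- libraries, and the epithelial marker *Epcam* had at most 4, so neither could be compared. The epithelial markers *Krt19* and *Krt18* were tested and did not pass, with log2 fold changes of -0.22 and 0.04. Of those not tested, *Cldn4* had 1, 1 and 0 counts in the WT libraries against 16, 6 and 21 in the *Aff3ir-ORF2*-/- libraries. *Krt8* went the other way, with 6, 16 and 12 against 5, 5 and 5. *Cdh15* (M-cadherin), of muscle precursors, had 9, 2 and 6 counts against 1, 3 and 0. Of the 4 skeletal muscle markers tested, *Acta1*, *Des* and *Pax3* were higher and *Chrna1* did not pass (log2 fold change -0.21, adjusted p = 0.357 by edgeR). The summed level of the list lay between 89.8 and 92.8 CPM in WT and between 270 and 380 CPM in *Aff3ir-ORF2*-/- libraries. *Acta1* alone made up 76.1 ± 1.14 and 259 ± 61.0 CPM of these (SD, n = 3 each). *Tnnt1* had at most 9 counts, and *Pax7* and *Myf5* had at most 1.

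**Figure D2:**
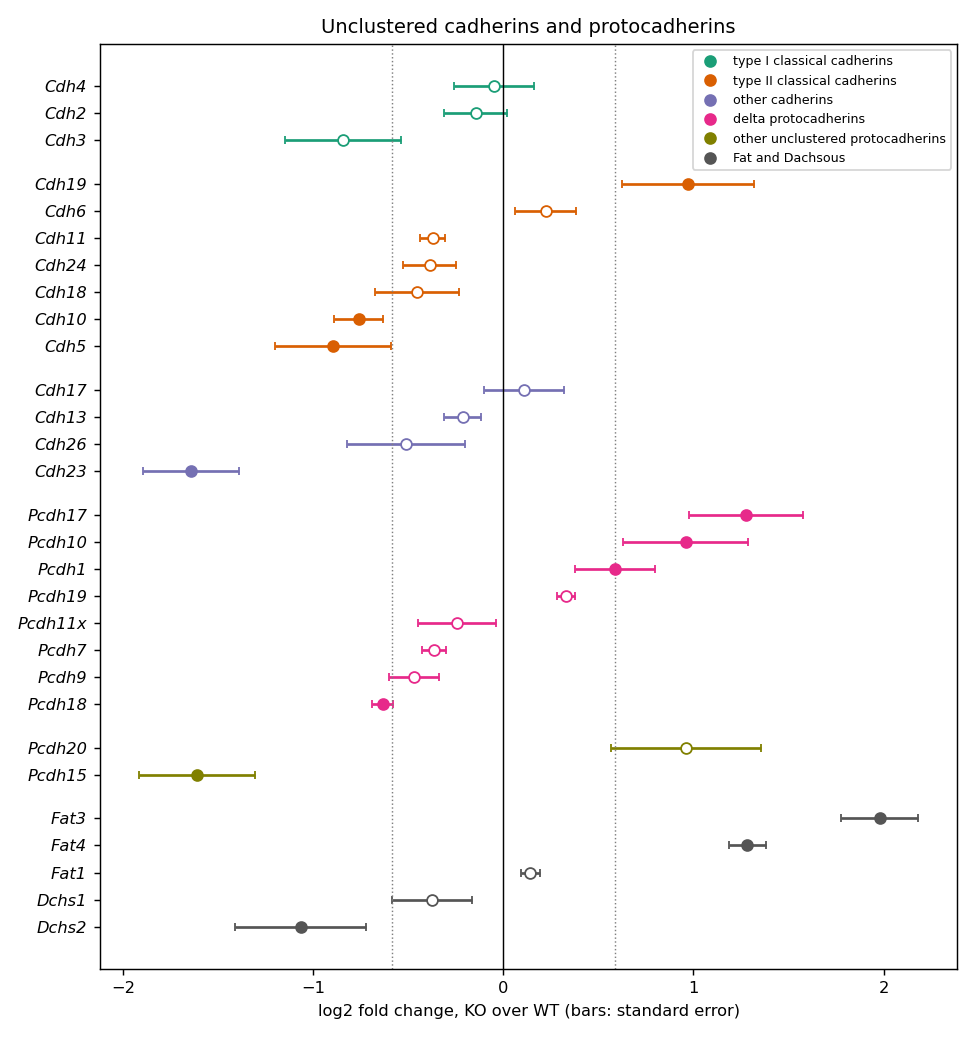
Log2 fold change of *Aff3ir-ORF2*-/- (KO) over WT for the 29 unclustered members tested, by group, with bars for the standard error, filled points for genes past both thresholds and dotted lines at a 1.5-fold change. *Fat3* is the highest at 1.98 and *Cdh23* the lowest at -1.64, and members of most groups lie on both sides of 0.

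Of the 7 tested type II classical cadherins, 1 rose and 2 fell, against 14.2% higher and 7.27% lower among all tested genes. *Cdh11* (OB-cadherin), the cadherin of mesenchyme, had 13192, 13488 and 13715 counts in the WT libraries against 10791, 12258 and 9962 in the *Aff3ir-ORF2*-/- libraries. The genotypes did not overlap, and the log2 fold change of -0.37 ± 0.07 (SE, adjusted p = 0.00106 by edgeR) was under the 1.5-fold threshold. Per kilobase of its longest transcript it remained the most abundant member in both genotypes, at 137 CPM per kb in WT and 106 CPM per kb in *Aff3ir-ORF2*-/- libraries. On the same scale *Fat1* had 76.6 and 84.6, *Pcdhgc3* 68.8 and 62.7, and *Cdh2* 64.7 and 58.5 CPM per kb.

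*Cdh10*, a cadherin known from brain, had 232, 290 and 264 counts in the WT libraries against 168, 188 and 134 in the *Aff3ir-ORF2*-/- libraries. The genotypes did not overlap and it fell by 0.76 ± 0.13 on the log2 scale (SE, adjusted p = 0.000789 by edgeR). *Cdh24* had between 103 and 105 counts in the WT libraries against 71, 97 and 84 in the *Aff3ir-ORF2*-/- libraries, lower at the adjusted p alone (log2 fold change -0.39, adjusted p = 0.0382 by edgeR). *Cdh6* and *Cdh18* did not pass, with log2 fold changes of 0.22 and -0.45.

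*Cdh5* (VE-cadherin), which holds endothelial cells together, had 15, 18 and 22 counts in the WT libraries against 9, 10 and 12 in the *Aff3ir-ORF2*-/- libraries. The groups did not overlap (log2 fold change -0.90 ± 0.30, adjusted p = 0.0294 by edgeR), but at these counts the call was lost under DESeq2, limma voom and without 4 of the 6 libraries in turn, with an adjusted p of up to 0.13. Of the other endothelial markers, *Vwf*, *Erg* and *Kdr* were higher. *Tek* and *Egfl7* did not pass (log2 fold changes -1.28 and -0.39, adjusted p = 0.0564 and 0.0791 by edgeR) but lay below WT in all *Aff3ir-ORF2*-/- libraries, as *Cdh5* did. The untested *Emcn* went the other way, with 2, 3 and 1 counts in the WT libraries against 13, 5 and 11 in the *Aff3ir-ORF2*-/- libraries. *Esam* had 5, 2 and 2 counts against 12, 5 and 7, and *Pecam1* had between 2 and 5 counts in every library. The summed endothelial markers lay between 10.8 and 11.0 CPM in WT and between 18.7 and 23.3 CPM in *Aff3ir-ORF2*-/- libraries.

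*Cdh19*, a cadherin of the neural crest and Schwann cell lineage, had 18, 19 and 15 counts in the WT libraries against 22, 32 and 54 in the *Aff3ir-ORF2*-/- libraries. All *Aff3ir-ORF2*-/- libraries were above WT and replicate 3 was highest (log2 fold change 0.97 ± 0.35, adjusted p = 0.0364 by edgeR). Without replicate 3 the log2 fold change was 0.55 and the call was lost, as it was under DESeq2 and without any 1 WT library. That library was also highest for *Sox10* (41 counts, against 24 and 18), *Ngfr* (250, against 108 and 91) and *Gfap* (347, against 4 and 12). Of the neural and glial markers, *Nes* and *Sox10* were higher, and the neuronal *Map2*, *Tubb3* and *Elavl4* were lower, with log2 fold changes between -1.18 and -0.84. The summed level of the list ran from 177 to 183 CPM in WT and from 190 to 273 CPM in *Aff3ir-ORF2*-/- libraries, of which *Nes* alone made up 120 ± 3.61 and 188 ± 30.7 CPM (SD, n = 3 each). The part of these cells' RNA in the *Cdh19* result was not tested. *Cdh8* had 0 counts in each WT library and 2, 11 and 2 in *Aff3ir-ORF2*-/- libraries, and *Cdh22* had at most 5 counts. *Cdh7*, *Cdh9*, *Cdh12* and *Cdh20* were not detectable at this depth.

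Among the other cadherins, *Cdh23*, a tip-link protein of hair cells, had 39, 44 and 36 counts in the WT libraries against 17, 12 and 11 in the *Aff3ir-ORF2*-/- libraries. It was the lowest log2 fold change of all members tested, -1.64 ± 0.25 (SE, adjusted p = 0.000439 by edgeR), or 3.12-fold lower. *Pcdh15*, its partner in the tip link, had 19, 31 and 26 counts in the WT libraries against 9, 8 and 9 in the *Aff3ir-ORF2*-/- libraries. No library overlapped, and it was 3.05-fold lower (log2 fold change -1.61 ± 0.31, adjusted p = 0.00154 by edgeR). Both were low, at 2.27 ± 0.221 and 1.45 ± 0.332 CPM in WT (SD, n = 3). *Cdh13* (T-cadherin), which is anchored by a lipid and binds adiponectin, had 432, 479 and 457 counts in the WT libraries against 406, 482 and 358 in the *Aff3ir-ORF2*-/- libraries, which overlapped (log2 fold change -0.21, adjusted p = 0.0884 by edgeR). *Cdh17* and *Cdh26* did not pass, with log2 fold changes of 0.11 and -0.51, and *Cdh16* was not detectable at this depth.

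Of the 8 tested delta protocadherins, adhesion genes studied mostly in brain, 3 rose and 1 fell. Among all tested genes 14.2% were higher and 7.27% lower. *Pcdh18* had 1617, 1691 and 1667 counts in the WT libraries against 1205, 1092 and 1085 in the *Aff3ir-ORF2*-/- libraries. It fell from 95.1 ± 1.23 to 61.3 ± 4.22 CPM (SD, n = 3 each), which made the log2 fold change -0.63 ± 0.06 (SE, adjusted p = 1.46e-05 by edgeR). *Pcdh19*, mutated in an epilepsy of girls, went the other way, with 2129, 2031 and 2098 counts in the WT libraries against 2869, 2725 and 2709 in the *Aff3ir-ORF2*-/- libraries. The libraries did not overlap, and the log2 fold change of 0.33 ± 0.05 (SE, adjusted p = 0.000304 by edgeR) was under 1.5-fold. Both were abundant, at 18.4 and 11.6 CPM per kb in WT and at 11.9 and 14.6 CPM per kb in *Aff3ir-ORF2*-/- libraries.

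*Pcdh7* had 3710, 3774 and 3824 counts in the WT libraries against 2959, 2911 and 3406 in the *Aff3ir-ORF2*-/- libraries, lower at the adjusted p alone (log2 fold change -0.36 ± 0.06, adjusted p = 0.000813 by edgeR). *Pcdh9* had 483, 474 and 518 counts in the WT libraries against 412, 293 and 418 in the *Aff3ir-ORF2*-/- libraries (log2 fold change -0.47 ± 0.13, adjusted p = 0.0161 by edgeR). Neither overlapped between genotypes. *Pcdh17*, known from synapses of the basal ganglia, had 17, 16 and 16 counts in the WT libraries against 35, 60 and 31 in the *Aff3ir-ORF2*-/- libraries, where each was above all WT libraries (log2 fold change 1.28 ± 0.30, adjusted p = 0.00518 by edgeR).

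*Pcdh10* had 23, 28 and 21 counts in the WT libraries against 35, 38 and 75 in the *Aff3ir-ORF2*-/- libraries (log2 fold change 0.96 ± 0.33, adjusted p = 0.0308 by edgeR), and its call was lost without *Aff3ir-ORF2*-/- replicate 3 or without any 1 WT library. *Pcdh1* had 41, 60 and 53 counts in the WT libraries against 90, 62 and 92 in the *Aff3ir-ORF2*-/- libraries. The ranges overlapped. A log2 fold change of 0.59 ± 0.21 (SE, adjusted p = 0.0362 by edgeR) lay at the 1.5-fold threshold, and the call was lost in 8 of the 16 other fits. *Pcdh11x* did not pass, with a log2 fold change of -0.24. *Pcdh20*, outside this group, had 18, 17 and 16 counts in the WT libraries against 28, 20 and 57 in the *Aff3ir-ORF2*-/- libraries, which did not overlap. It did not pass (log2 fold change 0.96 ± 0.40, adjusted p = 0.0635 by edgeR), but was called higher by edgeR with the replicate number as a block (adjusted p = 0.0338) and without *Aff3ir-ORF2*-/- replicate 2 (log2 fold change 1.24, adjusted p = 0.00312). Without *Aff3ir-ORF2*-/- replicate 3 its log2 fold change was 0.41. *Pcdh8* and *Pcdh12* were not detectable at this depth.

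**Figure D3:**
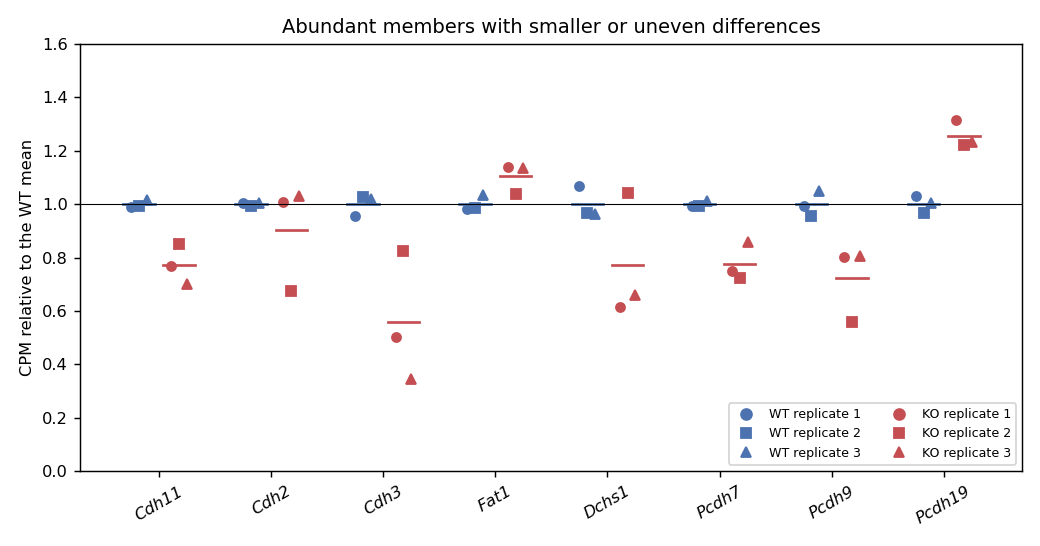
CPM of 8 members in each library, divided by the mean of the WT libraries of that gene, with a line at the mean of 3 libraries for WT (blue) and *Aff3ir-ORF2*-/- (KO, red). KO replicate 2 (square) lies apart from the other KO libraries most clearly for *Cdh2*, *Cdh3*, *Dchs1* and *Pcdh9*. All KO libraries lie on 1 side of WT for every gene shown except *Cdh2* and *Dchs1*.

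*Aff3ir-ORF2*-/- replicate 2 stood apart in many members. Of the 3 *Aff3ir-ORF2*-/- libraries it was the one farthest from the other 2, on log2 CPM, in 34 of the 67 members tested (50.7%), against 47.4% of all tested genes. In unclustered members it was farthest 15 times, 7 above and 8 below the others. In clustered protocadherins it was farthest 19 times, 18 of them above. Over all tested genes it was farthest in 6196, 2713 above and 3483 below. How often it stood apart was thus near the share of all genes, while the direction in the clustered protocadherins was not, and that difference was not tested.

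The catenins and adaptors that classical cadherins bind were mostly within 1.5-fold. Of 15 tested, 1 rose, the p120 relative *Arvcf* (log2 fold change 0.80, adjusted p = 0.000244 by edgeR), and none fell past both thresholds. Among all tested genes 14.2% were higher and 7.27% lower. At the adjusted p alone 1 was higher, *Ctnnd1*, and 3 were lower, *Pkp4*, *Afdn* and *Cttn*, with log2 fold changes of -0.27, -0.20 and -0.18. The log2 fold change was 0.07 for *Ctnnb1* (β-catenin), -0.14 for *Ctnna1* (α-catenin), 0.12 for *Ctnnd1* (p120) and 0.01 for *Vcl* (vinculin). Of the 8 transcription factors known for switching cadherins, none passed both thresholds. At the adjusted p alone 3 were higher, *Snai2*, *Snai1* and *Prrx1*, with log2 fold changes of 0.42, 0.41 and 0.27, and 1 was lower, *Zeb2*, with -0.26. Of 12 proteases that process or shed cadherins, 1 fell, *Adam12* (log2 fold change -1.31, adjusted p = 1.97e-06 by edgeR). At the adjusted p alone 6 were higher, among them *Adam15* with 0.52 and *Psen2* with 0.54, and 1 was lower, *Furin* with -0.31. Whatever the fold, 6 of the 12 were higher at the adjusted p, against 29.3% of all tested genes, and 2 lower, against 27.5%.

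The clustered protocadherins differed between the 3 arrays. In *Pcdhb*, whose genes are single exons, all 14 tested members had a negative log2 fold change, from -0.98 to -0.17 with a median of -0.54, and each one tested stayed negative in the 16 other fits. Of these, 4 fell past both thresholds (28.6%, against 7.27% lower among all tested genes). A further 3 (*Pcdhb5*, *Pcdhb16* and *Pcdhb17*) passed the adjusted p but not the fold. The genotypes did not overlap in 8 of the 14, or 57.1%, which was under the 66.0% of all tested genes. In *Pcdhg*, variable exons are joined to shared constant exons. There 12 of the 21 tested members were positive and 9 negative, with a median of 0.03. Past both thresholds 2 rose (9.52%, against 14.2% higher among all tested genes) and none fell. In *Pcdha*, built in the same way, 3 members were tested and none passed.

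**Figure D4:**
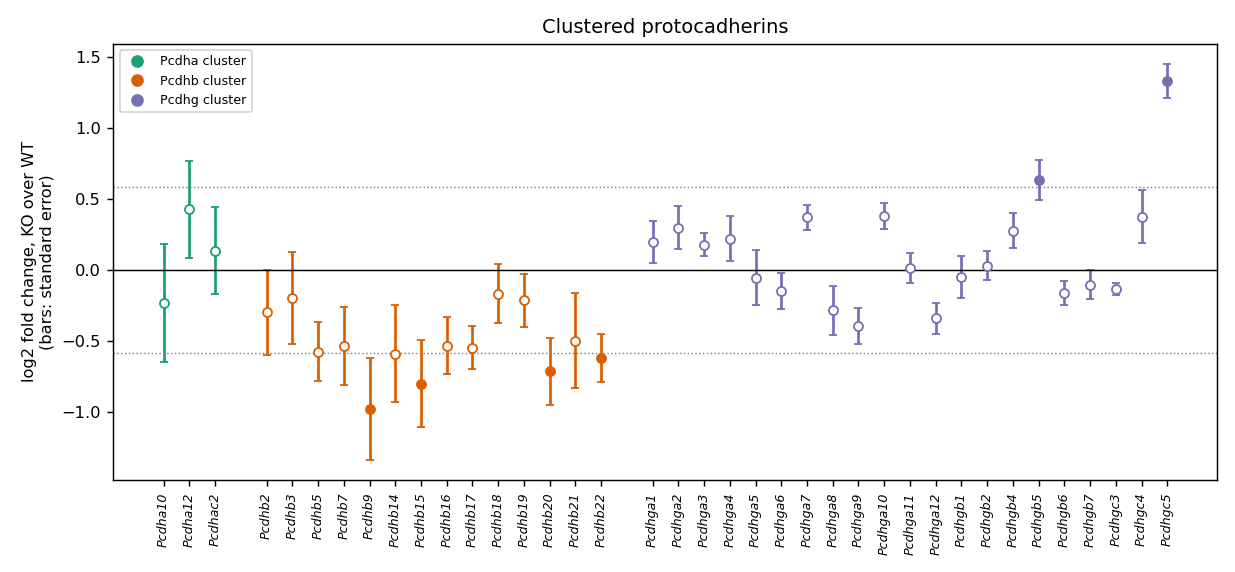
Log2 fold change of *Aff3ir-ORF2*-/- (KO) over WT for the 38 clustered protocadherins tested, by array and in numerical order, with bars for the standard error, filled points for genes past both thresholds and dotted lines at a 1.5-fold change. All 14 *Pcdhb* members lie below 0, whereas *Pcdhg* members lie on both sides, with *Pcdhgc5* highest at 1.33.

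*Pcdhgc5*, a C-type member of *Pcdhg*, had 170, 188 and 209 counts in the WT libraries against 462, 597 and 445 in the *Aff3ir-ORF2*-/- libraries. Every *Aff3ir-ORF2*-/- library was more than 2-fold above every WT library. It rose from 10.8 ± 1.06 to 27.2 ± 4.21 CPM (SD, n = 3 each), 2.51-fold (log2 fold change 1.33 ± 0.12, adjusted p = 2.5e-05 by edgeR). *Pcdhgb5* rose 1.55-fold, with 96, 83 and 75 counts in the WT libraries against 146, 148 and 122 in the *Aff3ir-ORF2*-/- libraries (adjusted p = 0.0039 by edgeR).

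*Pcdhgc3*, also C-type, was the main transcript of the array, with 5613, 5680 and 5586 counts in the WT libraries against 5328, 5606 and 5305 in the *Aff3ir-ORF2*-/- libraries. After scaling it was lower in all *Aff3ir-ORF2*-/- libraries, by little (log2 fold change -0.13 ± 0.04, adjusted p = 0.0168 by edgeR). The third C-type member, *Pcdhgc4*, did not pass (log2 fold change 0.37). *Pcdhga10* and *Pcdhgb6*, the next most counted, had log2 fold changes of 0.38 and -0.16, of which the first passed the adjusted p.

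As a share of all *Pcdhg* counts, *Pcdhgc3* went from 56.8% ± 0.445 in WT to 51.9% ± 1.96 in *Aff3ir-ORF2*-/- libraries, and *Pcdhgc5* from 1.91% ± 0.206 to 4.78% ± 0.445 (SD, n = 3 each). The sum over the array was level, at 568 ± 6.80 CPM in WT and 568 ± 33.7 CPM in *Aff3ir-ORF2*-/- libraries. Reads in the shared exons can be divided among members by the counting. As deposited, 97.6% of the *Pcdhg* values above 0 and 37 of 37 such *Pcdha* values were not whole numbers, against 0 of 122 in *Pcdhb* and 1 of 210 in unclustered members. The values of single *Pcdhg* and *Pcdha* members are therefore less certain than their sums.

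The *Pcdhb* members were each low. *Pcdhb17*, the most counted, had 126, 167 and 175 counts in the WT libraries against 103, 132 and 103 in the *Aff3ir-ORF2*-/- libraries, lower at the adjusted p alone (log2 fold change -0.55, adjusted p = 0.0118 by edgeR). *Pcdhb22* had 106, 112 and 107 counts in the WT libraries against 55, 86 and 82 in the *Aff3ir-ORF2*-/- libraries, which did not overlap (log2 fold change -0.62 ± 0.17, adjusted p = 0.0102 by edgeR). *Pcdhb16* was lower at the adjusted p alone, with a log2 fold change of -0.53. The other 3 called members, *Pcdhb9*, *Pcdhb15* and *Pcdhb20*, had log2 fold changes of -0.98, -0.80 and -0.71 at 47 counts or fewer in every library.

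Summed over the 14 tested members, *Pcdhb* gave 35.9, 39.5 and 39.9 CPM in WT and 22.9, 31.0 and 26.7 CPM in *Aff3ir-ORF2*-/- libraries. The genotypes did not overlap, and the *Aff3ir-ORF2*-/- mean was 0.699 of the WT mean (38.4 ± 2.23 against 26.9 ± 4.01 CPM, SD, n = 3 each). The ratio stayed between 0.646 and 0.750 when each library was left out. Calls of single *Pcdhb* genes were not stable, with 0 lower without *Aff3ir-ORF2*-/- replicate 1 and 7 without *Aff3ir-ORF2*-/- replicate 2. *Pcdha* summed to 6.27 ± 1.21 CPM in WT and 6.86 ± 3.03 CPM in *Aff3ir-ORF2*-/- libraries, which overlapped, and its most counted member *Pcdhac2* had a log2 fold change of 0.14 that did not pass. The other tested *Pcdha* members, *Pcdha10* and *Pcdha12*, had -0.23 and 0.43.

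**Figure D5:**
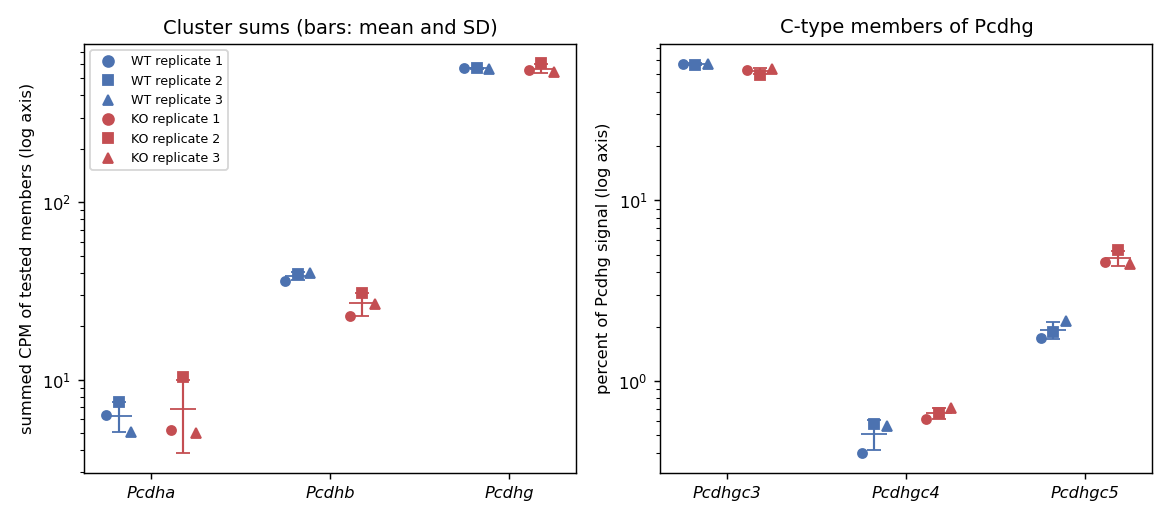
Left, CPM summed over the tested members of each array in each library (log axis). Right, the share of *Pcdhg* counts held by the 3 C-type members (log axis). Points are libraries, WT in blue and *Aff3ir-ORF2*-/- (KO) in red, and bars give the mean and SD of 3. The *Pcdhb* sum is lower in all KO libraries, the *Pcdhg* sum is level, and the *Pcdhgc5* share is higher in all KO libraries.

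Proteins known to govern the choice and silencing of clustered protocadherins were read beside them. The list was chosen with earlier results of these data known, so its shares are a description only. Of 15 tested, 4 fell past both thresholds (26.7%, against 7.27% of all tested genes) and none rose (against 14.2%). At the adjusted p alone 6 more were lower and 1 was higher. Whatever the fold, 10 of the 15 were thus lower at the adjusted p, where 27.5% of all tested genes were. The maintenance DNA methyltransferase *Dnmt1* had 5506, 5555 and 5676 counts in the WT libraries against 2677, 2438 and 2839 in the *Aff3ir-ORF2*-/- libraries (log2 fold change -1.15 ± 0.06, adjusted p = 1.15e-06 by edgeR). *Wiz*, *Dnmt3b* and *Smchd1* fell by 0.67, 0.63 and 0.59 on the log2 scale. *Smchd1* lay at the 1.5-fold threshold, and *Dnmt3b* had 61 counts or fewer in every library (adjusted p = 0.0278 by edgeR). *Ctcf* and the cohesin subunit *Rad21* were lower at the adjusted p alone, with log2 fold changes of -0.25 and -0.31. Whether these differences bear on the clustered protocadherins was not tested.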

How the data were processed

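RNA-seq of WT and *Aff3ir-ORF2*-/- MEFs (3 libraries each) was analysed. The authors deposited 1 table of estimated counts per gene, not normalized, made from paired-end DNBSEQ reads filtered with SOAPnuke. The submitters' processing notes name the build mm8. The aligner, counting tool and annotation are not given in the sources used here. Counts were rounded, filtered with filterByExpr (minimum count 10, minimum total 15) and tested with edgeR 4.0.16 (TMM, quasi-likelihood with robust dispersions, no covariate) in R 4.3.3, with limma 3.58.1 and DESeq2 1.42.0 as alternatives. Standard errors were derived from the F statistic. A first fit of this work had no robust dispersions and took library sizes from the tested genes. Both settings were changed after its calls had been seen, to match an earlier processing of these data, and the first fit is kept as an alternative. The functions were tested on simulated data. Lengths per kb are those of the longest GENCODE M21 transcript of a symbol (92 of 93 members). Floors of 3 counts cover counting error only. The members and gene lists were chosen with earlier results of these data known. The genes named were each tested unclustered member, and in each array the 3 with the most counts and up to 3 with the largest called change. Of most other lists only some genes were named. *Pcdhb5*, *Pcdhgc4*, *Cdh8*, some marker genes and some genes of the other lists were named after their values were seen. A gene of the marker lists is not reported here. Figures were drawn with Python 3.11.15 and matplotlib 3.10.9.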

Additional observations from a re-analysis of the deposited data

How the results depend on the processing

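The counts of called members depended on the threshold and, in the clusters, on single libraries. With a 2-fold change, 3 unclustered members were higher and 3 lower, and 1 clustered protocadherin was higher and 0 lower. With at least 10 counts in every library 3 unclustered members were lower. *Dchs2*, *Cdh5* and *Pcdh15* had under 10 counts in some *Aff3ir-ORF2*-/- library, so that filter removed them and they were not retested. Clustered protocadherins called lower numbered 2 with upper quartile scaling, 1 with DESeq2's Wald test and 1 with limma voom. Leaving out each library in turn gave 3 to 7 unclustered members higher, 4 to 7 lower, 1 to 2 clustered protocadherins higher and 0 to 7 lower. The lowest counts of unclustered members higher, 3, came without WT replicate 1, WT replicate 3 or *Aff3ir-ORF2*-/- replicate 3. Clustered higher fell to 1 without WT replicate 3 or *Aff3ir-ORF2*-/- replicate 1. Clustered lower was 2 without WT replicate 3 or *Aff3ir-ORF2*-/- replicate 3. The causes of the other changes in these counts were not tested.

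Without robust dispersions, a setting added after the data were seen, 7 unclustered members were lower, *Cdh3* being the one added (adjusted p = 0.0159 by edgeR), and the other counts were 6, 2 and 4. The first fit run here, which also took library sizes from the tested genes, gave the same counts. *Cdh3* therefore passes or fails with this choice, and the robust fit is the stricter one for it.

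Of 43 named members with a fit, 38 kept their direction in all 16 alternatives. The others turned only when a library was left out, over ranges of log2 fold change from -0.037 to 0.28 for *Cdh17*, -0.25 to 0.024 for *Cdh2*, -0.30 to 0.057 for *Cdh4*, -0.69 to 0.057 for *Pcdha10* and -0.31 to 0.31 for *Pcdhac2*, none of them called. The replicate numbers did not pair the libraries (correlations of deviations from the genotype means 0.039, 0.042 and 0.015). With the number as a replicate block, 6 unclustered members were higher, 6 lower, and 2 clustered protocadherins were higher and 3 lower, as *Pcdh1* and *Pcdhb15* lost their call and *Pcdh20* gained one. Members near 20 counts, among them *Dchs2*, *Cdh5*, *Pcdh15*, *Pcdhb9* and *Pcdhb15*, are limited by depth.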

Other observations

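Other proteins with cadherin repeats were read for comparison. Of 7 tested, 2 rose and 1 fell, against 14.2% higher and 7.27% lower among all tested genes. The seven-pass cadherin *Celsr3*, of the planar polarity pathway, had 25, 20 and 18 counts in the WT libraries against 37, 43 and 53 in the *Aff3ir-ORF2*-/- libraries, which did not overlap (log2 fold change 1.00 ± 0.24, adjusted p = 0.00551 by edgeR). The receptor kinase *Ret*, which carries cadherin-like repeats, had 23, 34 and 37 counts in the WT libraries against 59, 73 and 52 in the *Aff3ir-ORF2*-/- libraries (log2 fold change 0.89, adjusted p = 0.0072 by edgeR). The calsyntenin *Clstn2* had 223, 252 and 221 counts in the WT libraries against 63, 111 and 106 in the *Aff3ir-ORF2*-/- libraries, with no overlap (log2 fold change -1.39 ± 0.17, adjusted p = 0.000161 by edgeR). Its relative *Clstn1* was lower at the adjusted p alone, with a log2 fold change of -0.17. The desmosomal cadherins *Dsc1*, *Dsc3* and *Dsg2* had at most 7 counts, and *Dsc2* did not pass (log2 fold change -0.22).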
